A study of Homo sapiens with 6 samples.

Results

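The cells' defences against oxidants were followed through 42 genes of the glutathione, thioredoxin, ferritin and NADPH systems in PC-3 cells treated with S-adenosylmethionine (SAM), the methyl donor of the cell. The genes were taken by name from a list of NRF2 targets and neighbouring enzymes, and all 42 were found among the 57396 genes of the deposited count table. RNA sequencing covered 3 libraries of cells treated with 160 µM SAM and 3 control libraries labelled PBS, with a treatment period of 5 days in both groups. The study's methods, which give another SAM dose, describe a vehicle of PBS with sulfuric acid and ethanol. All libraries came from PC-3, 1 established line from a metastasis of a prostate carcinoma, and the labels do not say whether replicates were separate cultures, so the p-values measure a spread that may be technical.

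NRF2 (encoded by NFE2L2) is a transcription factor that KEAP1 holds in the cytoplasm and delivers for degradation. Oxidants and electrophiles modify KEAP1, NRF2 then accumulates, and with a small MAF partner it binds antioxidant response elements near genes for glutathione synthesis, thioredoxin reduction, quinone reduction, iron storage and NADPH supply. Glutathione and thioredoxin are the main thiol reductants of the cell, and both are kept reduced with NADPH. SAM is tied to this system because the homocysteine left after methylation can be turned into cysteine, the limiting amino acid of glutathione.

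The libraries held 9379258 to 28995160 gene counts, and a floor of 3 counts equals 0.103 to 0.322 CPM, the count scaled by library size with TMM factors. Epithelial markers were abundant, with KRT8, KRT18, KRT19, EPCAM and CLDN4 summing to 3219 to 3392 CPM in controls and 2763 to 3611 CPM with SAM. The prostate luminal markers KLK2 and KLK3 had no count in any library, and TMPRSS2 fell, from 4.90 to 5.58 CPM in controls to 2.96 to 3.96 CPM with SAM. Of 6 markers of immune, endothelial, fibroblast and muscle cells, 5 were measured and summed to 20.4 to 23.8 CPM in controls and 21.4 to 24.6 CPM with SAM, mostly COL1A1, with COL3A1 at 0 to 0.198 CPM and PTPRC at 0.169 to 0.545 CPM. The macrophage marker CD68 rose, from 0.294 to 0.590 CPM in controls to 0.861 to 1.52 CPM with SAM. These values rest on only 4 to 13 counts per control library and 18 to 25 per SAM library. The part of CD68 in the results was not tested. Libraries also differed within the groups. Control 1 and SAM 2 deviated together across genes (correlation of their deviations from the group means 0.70, as a description over genes). SAM 3 stood apart in base composition, with a slope of log2 CPM on GC content of 0.124 per 10 percentage points against -0.061 to -0.001 in the others. Its slope on transcript length was -0.114 per doubling, against -0.05 in SAM 1, 0.033 in SAM 2 and 0.008 to 0.068 in controls. The length slope thus partly followed the groups.

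After SAM treatment, 6 of the 42 genes rose and 1 fell. The rises were FTL, OSGIN1, GSTM3, GCLM, PRDX2 and KEAP1, between 1.30-fold and 1.69-fold, and the fall was ABCC3, to 0.598 of its control level (edgeR, Benjamini-Hochberg adjusted p under 0.05 over 15312 genes). Of all tested genes 10.4% were called in either direction. The 6 rises are 14.3% of the 42 genes, where 5.19% of all tested genes rose, and the 1 fall is 2.38%, where 5.24% of all tested genes fell. The 42 genes were listed with earlier results of these data known. These shares and the medians below are therefore descriptions and carry no test. All 42 genes passed the filter on low counts. The median log2 fold change of the 42 was 0.19, that of all tested genes was -0.01, and the fold changes ran from -0.74 to 0.76. In 14 genes every SAM library lay above every control (17.9% of all tested genes did so), and in 6 every SAM library lay below (18.8% of all), while in 36.7% of all genes the groups did not overlap in either direction. In bulk RNA, more cells with a transcript and more transcript per cell cannot be told apart.

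The 6 rises depended on the libraries kept. None of them passed once control 1, control 2, control 3 or SAM 1 was left out (edgeR adjusted p reached 0.0798 for FTL and 0.205 for KEAP1), and in those fits 0.909 to 1.61% of all genes were called. Without SAM 2, 16 of the 42 genes were higher and 3 lower, against 20.3% of all genes called, and without SAM 3, 7 were higher and 2 lower, against 15.7%. ABCC3 kept its call without each library except control 3 (adjusted p = 0.0539). The 6 rises had positive log2 fold changes and ABCC3 a negative one in each of 18 alternative fits. Constant signs were nearly fixed in advance, since the groups of these genes did not overlap and every fit reuses the same libraries. Of these fits 14 called each of FTL, GSTM3 and OSGIN1, 11 called KEAP1 and PRDX2, and 10 called GCLM. With all 6 libraries kept, KEAP1 and PRDX2 did not pass with library totals as the only scaling (edgeR adjusted p = 0.0663 and 0.0530). Nor did they with a term for the replicate number (edgeR adjusted p = 0.115 and 0.0833). GCLM did not pass with library totals (0.0559), in limma voom (0.0516) or in limma with a trend (0.0545). The plot of members by library shows how often SAM 3 was the extreme library: it held the highest value of 22 of the 42 genes, against 0 to 7 for each other library. Without SAM 3 the median log2 fold change of the 42 was 0.10. With a length and GC trend removed from each library, the median was 0.18. In that fit 11 genes were called higher and 4 lower, against 19.9% of all genes called.

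**Figure D1:**
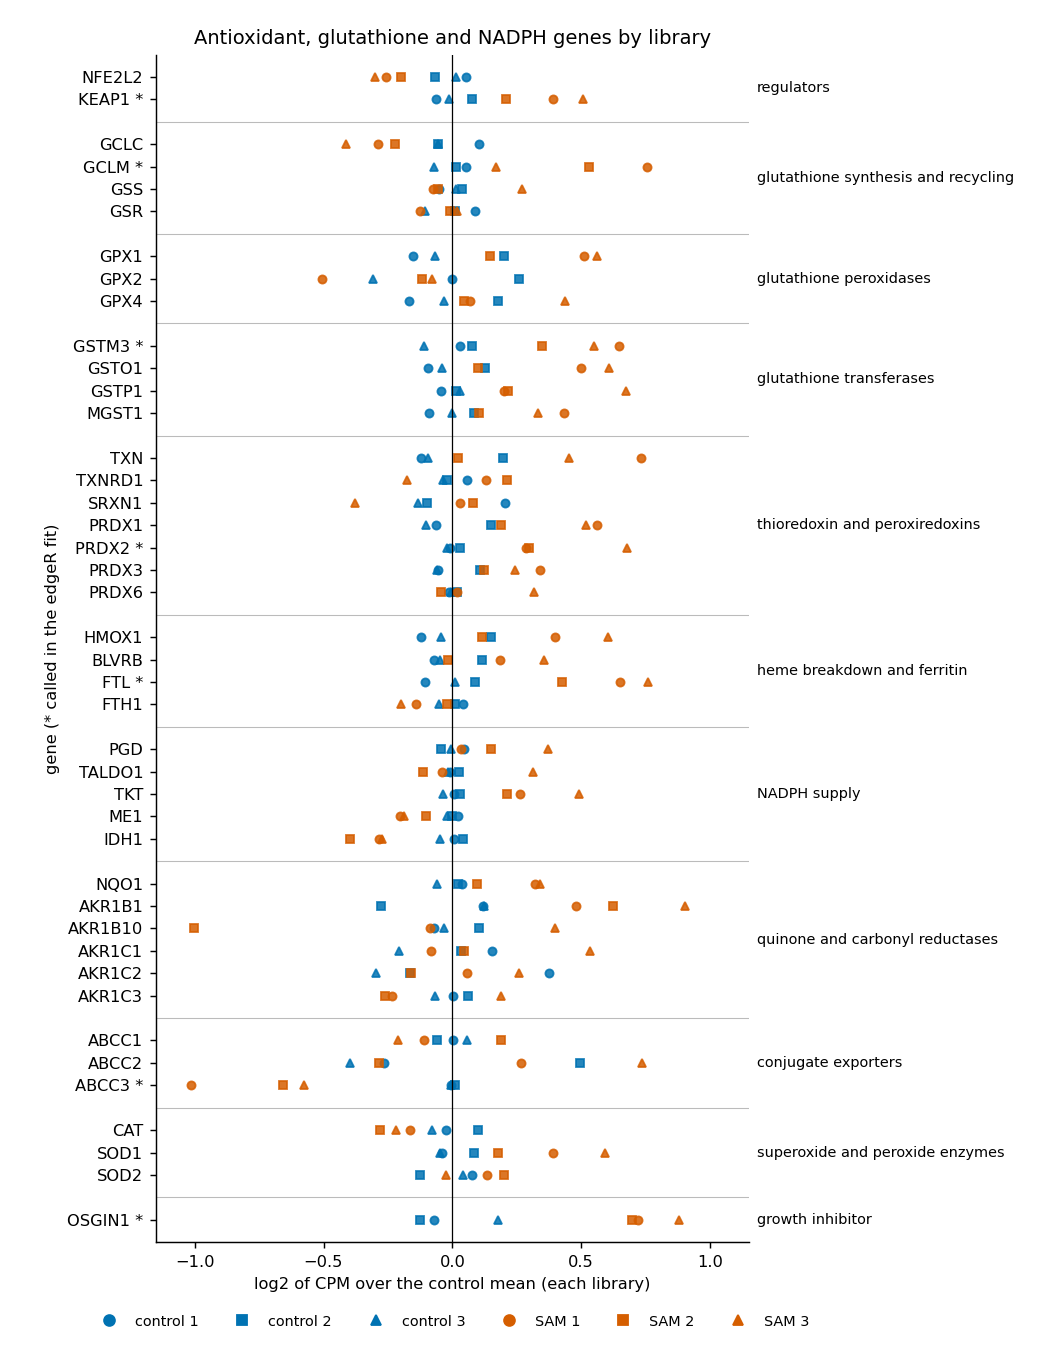
CPM of the 42 genes in each of the 6 libraries as log2 of the ratio to the control mean (horizontal axis), by gene and role (vertical axis), where blue symbols are controls, orange symbols are SAM and the shape gives the replicate number. Asterisks mark the 7 called genes, and the orange triangles of SAM 3 lie farthest right for 22 genes.

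KEAP1 rose and NFE2L2 did not pass. KEAP1 (ENSG00000079999, chromosome 19, positions 10486120 to 10503741 of GRCh38), the adaptor that delivers NRF2 for degradation, measured 113, 124 and 117 CPM in control 1 to 3 and 155, 136 and 167 CPM in SAM 1 to 3. It rose by a log2 fold change of 0.37 (SE 0.10), with an adjusted p = 0.0497 just inside the threshold. NFE2L2 (ENSG00000116044, chromosome 2, positions 177227595 to 177392697) measured 99.97, 91.9 and 97.3 CPM in controls and 80.6, 83.9 and 78.3 CPM with SAM. Every SAM library lay below the controls, but its log2 fold change of -0.25 (SE 0.09) did not pass (adjusted p = 0.0994). The deposited span of NFE2L2 overlaps AGPS on the other strand, which had 161% as many counts, so reads in shared stretches could not be told apart without strand. As a ratio within a library, which no scaling factor can change, there were 1.13 to 1.35 KEAP1 reads per NFE2L2 read in controls and 1.62 to 2.14 with SAM. This pair was chosen after the values were seen. With KEAP1 above and NFE2L2 below the controls in every SAM library, the ratio could not overlap and adds no support. A GC trend within a library can change this ratio, and its part was not tested. The longest transcript of KEAP1 has 60.8% GC and that of NFE2L2 40.5%, and SAM 3 had the highest ratio.

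Upstream sequences of the genes were searched for the core letters of the antioxidant response element, TGACNNNGC, on both strands, since NRF2 acts through this element. RefSeq windows of 300 bases, from 250 before to 49 after the start base, were at hand for 32 of the 42 genes. The letters were found in 7 of these 32 (21.9%), against 13.6% of all 27305 windows: GCLM, GPX2, GSTO1, GSTP1, ME1, PGD and TXNRD1. The narrower form TGACTCAGC, which contains the AP-1 site TGACTCA, was found in GSTP1 and ME1, 2 of 32 (6.25%), against 0.564% of all windows. Of the 6 genes that rose, all had a window and only GCLM held the letters in it. Sequence outside these windows was not searched, so a gene without a match may hold the element elsewhere. A match is a description of the sequence, not evidence of binding. The 4 windows below are shown because the placing of the SAM libraries against the controls differed between their genes, and capitals mark the matches, read 5′ to 3′ along the gene's strand (GRCh38.p14). GCLM rose, in GSTP1 all SAM libraries were above the controls, in ME1 all were below, and in TXNRD1 the groups overlapped.
GCLM (chr1:93909381-93909680, minus strand): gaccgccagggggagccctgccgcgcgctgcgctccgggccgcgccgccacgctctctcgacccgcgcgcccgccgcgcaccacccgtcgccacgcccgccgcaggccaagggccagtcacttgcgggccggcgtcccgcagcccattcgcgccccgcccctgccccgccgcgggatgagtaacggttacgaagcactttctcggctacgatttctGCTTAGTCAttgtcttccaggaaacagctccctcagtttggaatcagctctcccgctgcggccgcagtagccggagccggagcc
GSTP1 (chr11:67583562-67583861, plus strand): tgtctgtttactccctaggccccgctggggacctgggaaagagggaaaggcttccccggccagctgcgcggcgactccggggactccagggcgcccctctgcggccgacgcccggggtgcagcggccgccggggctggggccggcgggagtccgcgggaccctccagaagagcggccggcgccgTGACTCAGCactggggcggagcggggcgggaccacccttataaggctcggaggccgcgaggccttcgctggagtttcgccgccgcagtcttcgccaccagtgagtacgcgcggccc
ME1 (chr6:83431002-83431301, minus strand): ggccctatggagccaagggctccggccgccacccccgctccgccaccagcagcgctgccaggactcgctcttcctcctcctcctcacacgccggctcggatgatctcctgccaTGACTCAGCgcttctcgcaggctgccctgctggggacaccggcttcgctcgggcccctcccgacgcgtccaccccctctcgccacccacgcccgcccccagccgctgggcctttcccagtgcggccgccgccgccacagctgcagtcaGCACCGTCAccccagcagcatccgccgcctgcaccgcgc
TXNRD1 (chr12:104215529-104215828, plus strand): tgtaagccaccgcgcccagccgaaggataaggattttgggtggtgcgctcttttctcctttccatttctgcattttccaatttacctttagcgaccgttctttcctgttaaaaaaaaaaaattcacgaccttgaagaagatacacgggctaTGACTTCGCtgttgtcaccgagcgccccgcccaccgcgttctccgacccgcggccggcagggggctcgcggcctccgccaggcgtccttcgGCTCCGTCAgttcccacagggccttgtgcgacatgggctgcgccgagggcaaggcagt
The GCLM match lies at bases -34 to -26 from the start base, counted as 0, on the opposite strand, the GSTP1 match at -66 to -58, and the narrower match of ME1 at -137 to -129. TXNRD1 held 1 match at -99 to -91 and another, on the opposite strand, at -8 to 0.

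Glutathione synthesis begins with glutamate-cysteine ligase, whose catalytic subunit is GCLC and whose modifier subunit is GCLM. The modifier rose, a call kept in 10 of 18 alternative fits, and the catalytic subunit did not pass. GCLM (ENSG00000023909, chromosome 1, positions 93885205 to 93909456) measured 39.5, 38.5 and 36.2 CPM in controls and 64.1, 54.97 and 42.8 CPM with SAM, a log2 fold change of 0.51 (SE 0.14, adjusted p = 0.0431). SAM 3 was the lowest of the treated libraries here. GCLC (ENSG00000001084, chromosome 6, positions 53497341 to 53616970) measured 69.1, 61.9 and 61.9 CPM in controls and 52.6, 55.1 and 48.3 CPM with SAM. All SAM libraries of GCLC lay below the controls, with a log2 fold change of -0.30 (SE 0.09) that did not pass (adjusted p = 0.0659), and it passed as lower in 3 of the 18 alternative fits. For each GCLC read the controls held 0.571, 0.621 and 0.585 GCLM reads and the SAM libraries 1.22, 0.997 and 0.885, a mean of 0.593 ± 0.0258 against 1.03 ± 0.170 (SD, n = 3). The ratios of the 2 groups did not overlap, and could not, with GCLM above and GCLC below the controls in every SAM library. This pair and the ferritin and KEAP1 pairs were chosen after the values were seen, so they carry no test. GSS, which adds glycine in the second step, averaged 116 ± 3.67 CPM in controls against 121 ± 16.7 CPM under SAM, and GSR, which reduces oxidised glutathione with NADPH, 83.6 ± 5.6 and 81.3 ± 4.20 CPM. Both GSS and GSR overlapped between groups (log2 fold changes 0.05, SE 0.11, and -0.04, SE 0.10).

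**Figure D2:**
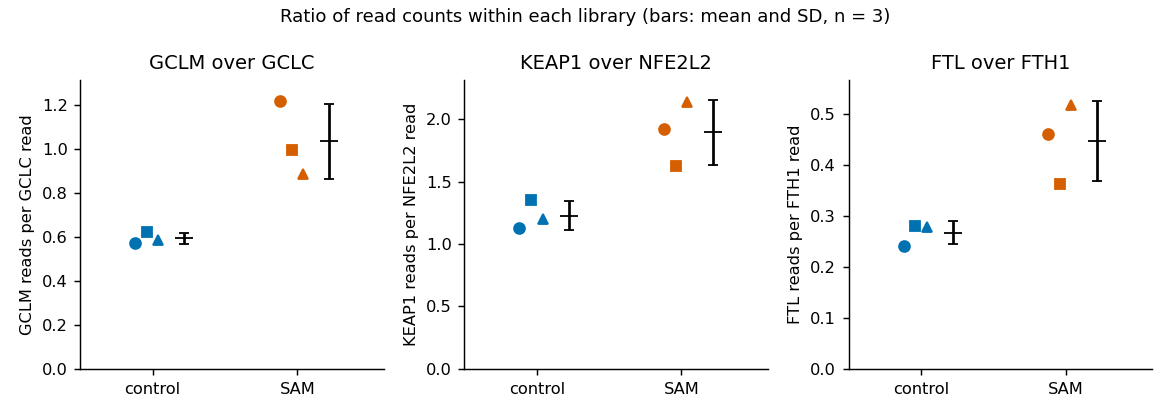
Reads of 1 gene per read of its partner (vertical axes) in control (blue) and SAM (orange) libraries (horizontal axes) for GCLM over GCLC, KEAP1 over NFE2L2 and FTL over FTH1, with circles, squares and triangles for replicates 1, 2 and 3 and bars for the mean and SD. The mean GCLM to GCLC ratio is 0.593 in controls and 1.03 with SAM, and the groups do not overlap in any panel. The pairs were chosen after the values were seen, so the panels carry no test.

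The glutathione peroxidases use glutathione to reduce peroxides, and none of the 3 passed. GPX1, the main cytosolic form, measured 265, 338 and 281 CPM in controls and 419, 325 and 434 CPM with SAM. Its SAM 2 library fell below control 2, so the groups overlapped (log2 fold change 0.42, SE 0.13, adjusted p = 0.0744). GPX4, which reduces lipid hydroperoxides in membranes and restrains ferroptosis, averaged 144 ± 17.7 CPM in controls against 165 ± 26.0 CPM under SAM (log2 fold change 0.19, SE 0.13). GPX2, the gastrointestinal form, measured 3.04 to 4.5 CPM in controls and 2.65 to 3.57 CPM with SAM, where a difference of this size (log2 fold change -0.25, SE 0.21) was not detectable. Its positions overlap those of CHURC1, which had far more counts.

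The glutathione transferases, which attach glutathione to electrophiles, all had positive log2 fold changes, and GSTM3 rose. GSTM3 (ENSG00000134202, chromosome 1, positions 109733932 to 109741038), a mu-class transferase, measured 45.4, 46.9 and 41.2 CPM in controls and 69.5, 56.7 and 65.2 CPM with SAM. Its lowest SAM library stood clear of its highest control, and the log2 fold change was 0.52 (SE 0.10, adjusted p = 0.0166). GSTP1, the pi-class form whose promoter is silenced in many prostate carcinomas, was well expressed in these cells at 199, 207 and 209 CPM in controls and 235, 238 and 327 CPM with SAM. All its SAM libraries were above the controls, SAM 3 by the widest margin, and it did not pass (log2 fold change 0.38, SE 0.13, adjusted p = 0.0873). GSTO1, an omega-class enzyme, averaged 72.6 ± 5.98 and 97.0 ± 17.1 CPM with an overlap at SAM 2 (log2 fold change 0.42, adjusted p = 0.0763). MGST1, a membrane-bound form, averaged 181 ± 11.01 and 222 ± 25.5 CPM without overlap (log2 fold change 0.30, adjusted p = 0.101).

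Thioredoxin and the peroxiredoxins form the second thiol system, in which peroxiredoxins reduce peroxides, thioredoxin reduces them in turn and thioredoxin reductase spends NADPH. Of 7 genes 1 passed, and 6 had positive log2 fold changes. PRDX2 (ENSG00000167815, chromosome 19, positions 12796820 to 12801859), a cytosolic peroxiredoxin, measured 285, 293 and 283 CPM in controls and 350, 352 and 459 CPM with SAM. It rose by a log2 fold change of 0.43 (SE 0.12, adjusted p = 0.0459), with SAM 1 and SAM 2 nearly equal and SAM 3 higher. The neighbour HOOK2 overlaps it on the same strand with 23.0% as many counts. PRDX1, its closest relative, measured 346, 401 and 337 CPM in controls and 534, 412 and 517 CPM with SAM. The groups stayed apart by a narrow margin between SAM 2 and control 2, and the adjusted p = 0.0501 was just outside the threshold (log2 fold change 0.43, SE 0.12). PRDX1 was called in 10 of the 18 alternative fits.

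TXN, thioredoxin itself, averaged 140 ± 17.6 CPM in controls against 188 ± 45.2 CPM under SAM, with SAM 2 inside the control range (log2 fold change 0.43, SE 0.17, adjusted p = 0.120). The mitochondrial PRDX3 averaged 154 ± 10.3 and 182 ± 13.6 CPM (log2 fold change 0.24, adjusted p = 0.139), with its groups just apart. PRDX6, which uses glutathione rather than thioredoxin, averaged 728 ± 7.75 and 783 ± 108 CPM, where SAM 3 alone stood above the others. The reductase TXNRD1 measured 475, 450 and 445 CPM in controls and 500, 529 and 404 CPM with SAM, so the treated libraries lay on both sides of the controls (log2 fold change 0.07, SE 0.11). SRXN1, sulfiredoxin, which restores overoxidised peroxiredoxins, averaged 9.77 ± 1.30 and 9.27 ± 1.52 CPM (log2 fold change -0.06, SE 0.16). TXNRD1 and SRXN1, both well-known NRF2 targets, overlapped between groups.

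FTL rose and FTH1 did not pass. FTL (ENSG00000087086, chromosome 19, positions 48965301 to 48966878), the light chain that helps mineralise iron in the ferritin shell, measured 476, 544 and 516 CPM in controls and 804, 687 and 868 CPM with SAM. It rose by a log2 fold change of 0.62 (SE 0.11, adjusted p = 0.0114), 1.53-fold, and its groups were well apart. FTH1 (ENSG00000167996, chromosome 11, positions 61959718 to 61967660), the heavy chain with the ferroxidase centre and the most abundant of the 42 transcripts, measured 1977, 1937 and 1856 CPM in controls and 1746, 1895 and 1675 CPM with SAM. Its groups overlapped (log2 fold change -0.12, SE 0.08, adjusted p = 0.367). For each FTH1 read the controls held 0.241, 0.281 and 0.278 FTL reads and the SAM libraries 0.460, 0.363 and 0.518. With the length and GC trend removed, FTL still rose, by a log2 fold change of 0.43 (adjusted p = 0.00329). Both chains have many processed pseudogenes: 25 FTH1 pseudogenes took 0.515 to 2.24% as many counts as FTH1, and 16 of FTL 0.159 to 0.315% as many as FTL, so the division of reads is slightly uncertain.

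Heme breakdown yields iron, carbon monoxide and biliverdin. HMOX1, the inducible heme oxygenase and a classic NRF2 target, was low, at 7.19, 8.67 and 7.59 CPM in controls and 10.3, 8.46 and 11.9 CPM with SAM. SAM 2 lay within the control range and the gene did not pass (log2 fold change 0.38, SE 0.16, adjusted p = 0.136). BLVRB, a biliverdin reductase, averaged 42.4 ± 3.01 and 48.1 ± 6.17 CPM (log2 fold change 0.18, SE 0.11).

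None of the 5 genes of NADPH supply passed. TKT, transketolase of the pentose phosphate pathway, measured 462, 471 and 450 CPM in controls and 553, 534 and 649 CPM with SAM. Every SAM library was higher and the adjusted p was 0.0632 (log2 fold change 0.33, SE 0.10). IDH1 (ENSG00000138413, chromosome 2, positions 208236227 to 208266074), which makes NADPH from isocitrate in the cytosol, measured 138, 141 and 133 CPM in controls and 113, 104 and 114 CPM with SAM. Every SAM library was lower, and the log2 fold change of -0.32 (SE 0.09) missed the threshold narrowly (adjusted p = 0.0519), while 10 of the 18 alternative fits called it lower. ME1, the cytosolic malic enzyme, averaged 77.3 ± 1.06 and 69.0 ± 2.67 CPM, also with every SAM library lower (log2 fold change -0.16, adjusted p = 0.226). The pentose phosphate enzymes PGD and TALDO1 overlapped between groups, at 156 ± 4.80 and 178 ± 21.3 CPM for PGD and at 166 ± 2.74 and 173 ± 28.6 CPM for TALDO1.

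Among quinone and carbonyl reductases, none of 6 passed. NQO1, the quinone reductase most used as a readout of NRF2, measured 88.9, 87.8 and 83.0 CPM in controls and 108, 92.4 and 110 CPM with SAM. The groups did not overlap, and the log2 fold change was 0.26 (SE 0.10, adjusted p = 0.123). The aldo-keto reductases, strongly induced in lung cells with mutant KEAP1, were scarce here. AKR1C3, which also reduces steroid hormones, averaged 7.70 ± 0.347 and 7.25 ± 1.33 CPM. AKR1B1, aldose reductase, averaged 0.989 ± 0.149 and 1.58 ± 0.241 CPM, with all SAM libraries higher (log2 fold change 0.68, SE 0.25, adjusted p = 0.103). AKR1B10, AKR1C1 and AKR1C2 were at or below 2.38 CPM in every library and overlapped between groups. AKR1C1, AKR1C2 and AKR1C3 have overlapping positions in the deposited table and related sequences, so their separate values are uncertain.

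Of the 3 conjugate exporters, ABCC3 fell, with the smallest adjusted p of the 42 genes. ABCC3 (ENSG00000108846, chromosome 17, positions 50634777 to 50692252), which carries glucuronide and bile salt conjugates out of the cell, measured 79.9, 80.9 and 80.01 CPM in the controls and 39.7, 50.8 and 53.8 CPM under SAM. The controls were nearly identical and every SAM library was far below them. The log2 fold change was -0.74 (SE 0.12, adjusted p = 0.00802), it ran from -0.83 to -0.62 over the alternatives, and 17 of 18 called it. ABCC1, which exports glutathione conjugates, measured 69.9, 66.9 and 72.5 CPM in controls and 64.7, 79.6 and 60.2 CPM with SAM, with the treated libraries on both sides of the controls (log2 fold change -0.04, SE 0.12). ABCC2, the related apical exporter, had 4 to 18 counts per library, too few to show a difference of this size.

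The enzymes that act on superoxide and hydrogen peroxide directly did not pass. SOD1, the cytosolic superoxide dismutase, measured 161, 176 and 161 CPM in controls and 218, 188 and 250 CPM with SAM. All SAM libraries were higher, with an adjusted p = 0.0564 (log2 fold change 0.40, SE 0.12). SOD2, the mitochondrial form and also a target of NF-kB, averaged 169 ± 12.4 and 182 ± 14.3 CPM with overlap, and its positions in the table overlap ACAT2 and WTAP. CAT, catalase of the peroxisome, averaged 108 ± 7.02 and 92.2 ± 3.70 CPM, with every SAM library lower (log2 fold change -0.22, SE 0.10, adjusted p = 0.148).

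OSGIN1 (ENSG00000140961, chromosome 16, positions 83948282 to 83966332), a growth inhibitor induced by oxidative stress and a target of NRF2, had the largest rise of the set from a low level. It measured 4.61, 4.45 and 5.48 CPM in controls and 7.99, 7.87 and 8.91 CPM with SAM, 1.69-fold higher (log2 fold change 0.76, SE 0.15, adjusted p = 0.0162). The 3 treated libraries were close together and apart from the controls. Its counts were 43 to 112 per control library and 93 to 232 per SAM library, which limits the precision of each value.

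**Figure D3:**
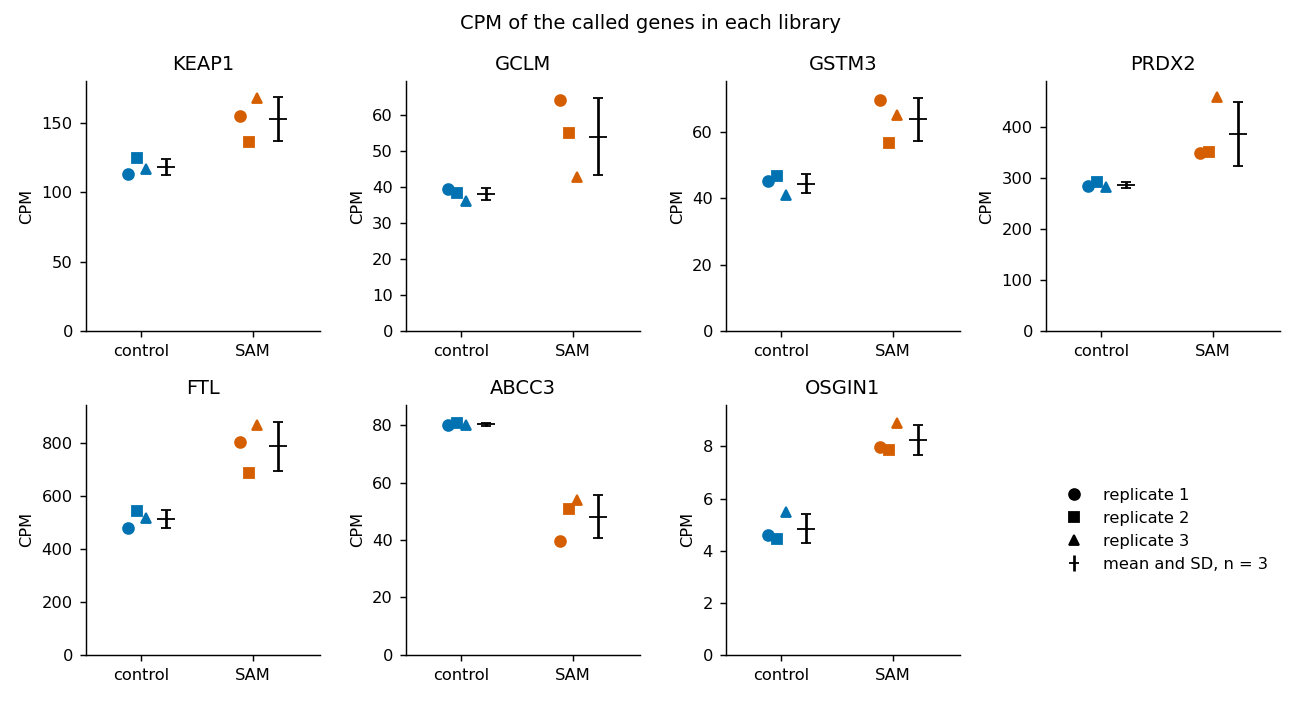
CPM (vertical axes, from 0) of the 7 called genes in control (blue) and SAM (orange) libraries (horizontal axes), with a symbol shape per replicate number and bars for the mean and SD. ABCC3 averages 80.3 CPM in controls and 48.1 CPM with SAM, and in each of the 7 genes the groups do not overlap.

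Levels between genes were compared as CPM per kilobase of exon, over the 41 genes with a length in GENCODE release 44. The length is the union of all annotated exons of a gene. It can exceed the transcript that the cells express, so the order depends on it. In controls the order was led by FTH1 (960 ± 30.9), FTL (588 ± 39.0), PRDX6 (315 ± 3.35), PRDX1 (215 ± 20.8) and GPX1 (206 ± 26.9 CPM per kilobase, SD, n = 3). PRDX1 and GPX1, neighbours in this order, overlapped between control libraries, and so did PRDX2 and TXN at 141 ± 2.68 and 139 ± 17.5. With SAM, the level of FTL was 903 ± 105 CPM per kilobase and that of FTH1 884 ± 56.0, within their spread. This nearness rests on the lengths used, 871 bases for FTL and 2004 for FTH1. In CPM, not divided by length, FTH1 averaged 1772 and FTL 786 with SAM, so FTH1 stayed the higher. The middle of the order, from KEAP1 (33.0) to ME1 (23.2), held 8 genes of which each overlapped the next except ME1. The order ended with AKR1B1 (0.271), AKR1C1 (0.187), AKR1C2 (0.109) and ABCC2 (0.0658 CPM per kilobase). The catalytic GCLC (7.46) and the modifier GCLM (7.01) were neighbours in controls and overlapped, and with SAM they stood at 6.04 ± 0.400 and 9.95 ± 1.98. Together the 42 genes held 0.768, 0.810 and 0.776% of the counts of the controls and 0.872, 0.813 and 0.901% of those of the SAM libraries, where SAM 2 was barely above control 2.

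A wider list of 128 other genes of these systems, also drawn up with earlier results known, placed the 42 in context. Of the 128, 125 were found by name and 111 tested. Of these 111, 5 rose (4.5%, against 5.19% of all tested genes) and 9 fell (8.11%, against 5.24%), and the median log2 fold change was 0.05. Of the 9 falls 5 were in cystine and glutathione supply, where 5 of 12 genes fell and 0 rose. SLC7A11, the cystine importer that feeds glutathione synthesis, measured 186, 156 and 159 CPM in controls and 55.7, 110 and 54.1 CPM with SAM (log2 fold change -1.19, SE 0.24). SAM 2 was the mildest of the treated libraries, yet lower than every control. The others were CBS and CTH of transsulfuration, CHAC1, which breaks glutathione down, and the neutral amino acid carrier SLC1A4. SLC7A11, CTH, CHAC1 and SLC1A4 are also known targets of ATF4, the factor of the amino acid response, as is SESN2, a stress-induced antioxidant protein that fell by 0.60 on the log2 scale. These names come from the called genes only, genes not called were not sorted by ATF4, and a part of ATF4 was not tested.

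Elsewhere on the wider list, HMOX2, the constitutive heme oxygenase, measured 41.5, 44.8 and 43.97 CPM in controls and 67.3, 64.9 and 74.5 CPM with SAM, a rise of 0.66 on the log2 scale (SE 0.09) that held without each library in turn. CYP1B1, a cytochrome P450 of the aryl hydrocarbon receptor pathway, measured 27.8, 26.7 and 28.0 CPM in controls and 13.8, 14.5 and 9.84 CPM with SAM (log2 fold change -1.11, SE 0.14), a fall that also held without each library. ALDH3A1, an aldehyde dehydrogenase, fell from 3.27 ± 0.358 to 1.08 ± 0.675 CPM. In NADPH supply, H6PD, which makes NADPH inside the endoplasmic reticulum, fell from 44.6 ± 3.17 to 23.3 ± 5.10 CPM and was lost only without control 3. RPIA, an isomerase of the pentose phosphate pathway, rose from 24.7 to 33.4 CPM. The remaining rises were SQSTM1, an adaptor that competes with NRF2 for KEAP1 (log2 fold change 0.34), ESD, a formaldehyde-clearing esterase that acts on a glutathione adduct (0.54), and GLRX2, a glutaredoxin (0.49). Apart from HMOX2, CYP1B1, H6PD and CBS, the calls on this list did not pass once control 1, control 2, control 3 or SAM 1 was left out (edgeR adjusted p reaching 0.176), nor did CBS once a control was (reaching 0.0953).

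**Figure D4:**
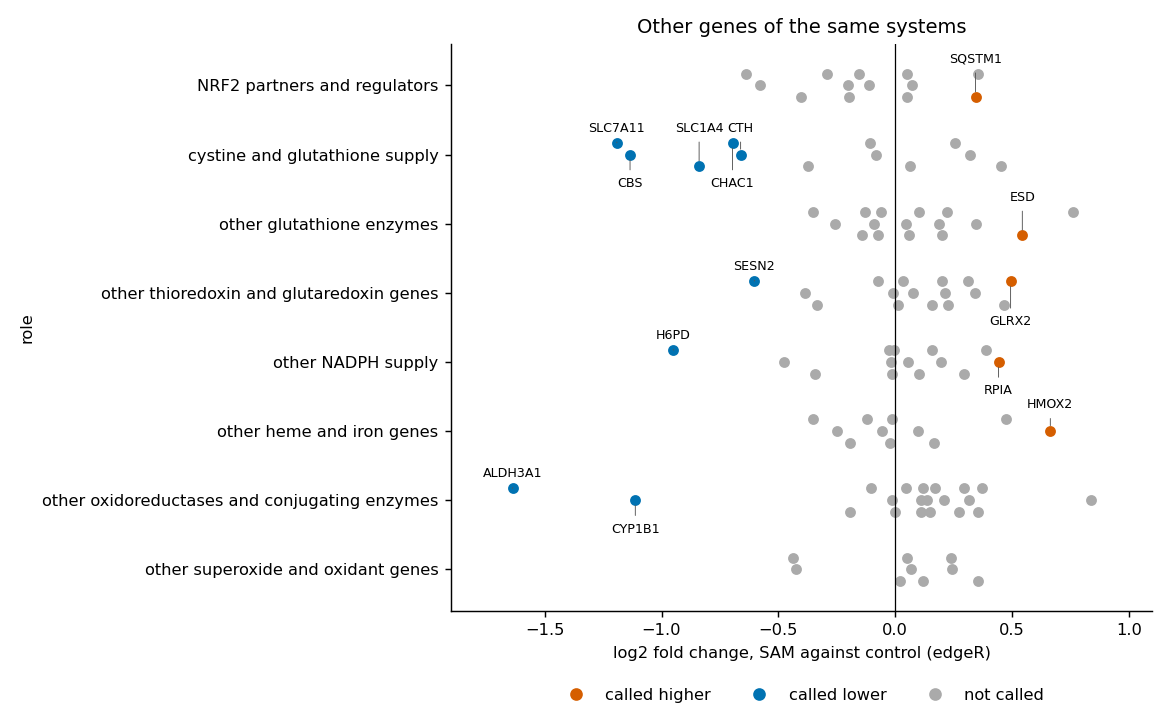
Log2 fold change with SAM (horizontal axis) of 111 tested genes of the same systems outside the 42, by role (vertical axis), with called rises in orange, called falls in blue, other genes in grey and vertical offsets only for legibility. In cystine and glutathione supply 5 of 12 genes fell, with SLC7A11 at -1.19.

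Transcript length and base composition moved with the fold changes. Across the 41 of the 42 genes with a GENCODE transcript, Spearman's rho of log2 fold change with transcript length was -0.24 and with GC content 0.27, and across 14882 tested genes -0.31 and 0.18. These are descriptions across genes that share the same 6 libraries, so they carry no p. The median longest transcript of the 41 genes was 2277 bases, against 3576 for all tested genes with a transcript. With the length and GC trend of each library removed, all 6 rises and ABCC3 were called, and PRDX1, SOD1, TKT, GSTP1 and MGST1 also rose while IDH1, GCLC and CAT fell, in a fit that called 19.9% of all genes. GPX1, at a log2 fold change of 0.23, and GPX4, at 0.01, were lower there than the 0.42 and 0.19 they had without this step. The plot of called genes by fit sets these counts side by side.

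**Figure D5:**
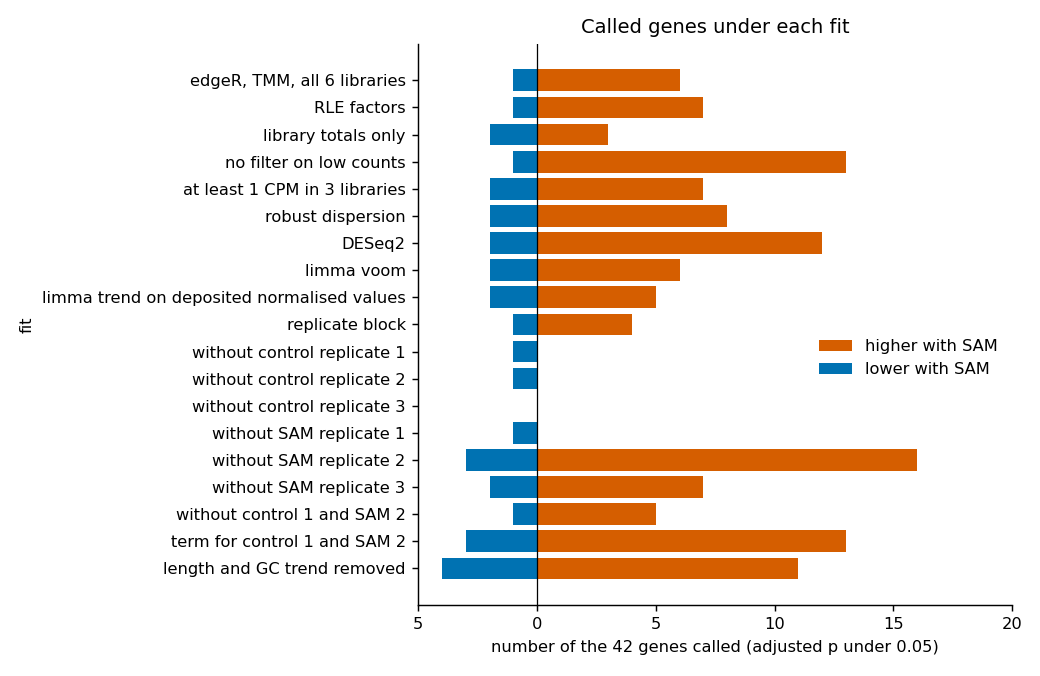
Number of the 42 genes called higher (orange, to the right of 0) and lower (blue, to the left) with SAM at an adjusted p under 0.05 (horizontal axis) under the fit reported here, at the top, and 18 alternatives (vertical axis). Higher calls range from 0, where control 1, control 2, control 3 or SAM 1 is left out, to 16 without SAM 2.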

How the data were processed

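RNA was sequenced from PC-3 cells, with 3 control and 3 SAM libraries. Per the labels, 500 ng of RNA went into each TruSeq library, sequenced by HiSeq2000. HTSeq 0.6.1, STAR 2.4, DESeq2 1.8, SAMtools 0.1.19, CASAVA 1.8.2 and FastQC 0.10.0 are credited to the submitters' processing notes, which state no roles here. The study's text gives another SAM dose, kit and sequencer, and the labels were followed. The authors deposited raw counts per Ensembl gene and a normalised signal, which is the count divided by 1 factor per library. Of 51488 gene identifiers shared with GENCODE release 44, 99.8% overlap that gene, so positions are on GRCh38, although the notes name hg19 and mm10. The strand setting of the counting was not given in the sources used here.

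Counts were fitted in edgeR 4.0.16 (glmQLFit and glmQLFTest, R 4.3.3) with treatment as the only term, after filterByExpr, which kept 15312 genes, and TMM scaling. The tests were two-sided, and a gene was called at a Benjamini-Hochberg adjusted p under 0.05. The biological coefficient of variation was 13.5%. SE is the log2 fold change divided by the root of F, and CPM are mean ± SD (n = 3). Depth differed between libraries, and control 1 was the shallowest. Every one of the 42 genes is named, and from the wider list the called genes. Of the wider list, 3 genes, and PECAM1 among the markers, are not analysed here. Some markers are not reported here. The members and lists were chosen with earlier results of these data known. Libraries of a group differed by 4.98 to 61.6 times the sampling noise (chi-square per degree of freedom), so none were merged. Alternatives were RLE factors, library totals, no filter, DESeq2 1.42.0, a filter of 1 CPM in 3 libraries, limma 3.58.1 (voom, or a trend fitted to the deposited signal as log2 of value plus 1), robust dispersion, a replicate block, each library left out, control 1 and SAM 2 left out or given a term, and a length and GC trend removed (GENCODE release 44, 97.2% of tested genes). Promoter windows are RefSeq's (GRCh38.p14). Figures were drawn with matplotlib 3.10.9.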

Additional observations from a re-analysis of the deposited data

How the results depend on the processing

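The 6 rises among the 42 genes (5.19% of all genes rose) numbered 3 with library totals only (3.97%), 13 without a filter on low counts (4.54%), 12 in DESeq2 (7.47%), 13 where control 1 and SAM 2 shared a term (8.2%), and 11 with the length and GC trend removed (10.4%). The falls numbered 2 with library totals, a filter of 1 CPM in 3 libraries, DESeq2, robust dispersion, voom or limma with a trend, 3 with the term and 4 with the trend removed. Of all genes, 961, 813, 921, 864, 884 and 740 were called lower in the fits with 2 falls, in that order. With the term 1246 of 15312 genes were lower, and with the trend removed 1414 of 14882, against 803 of 15312 in the fit reported here. The rises on the wider list were 5 and became 3, 16, 12, 14 and 23 with library totals, no filter, DESeq2, the term and the trend removed, where its falls numbered 14 instead of 9 in the last. Of all genes, 1598 were called, and 2743 without a filter, 954 without control 1 and SAM 2, 2502 with the term and 2955 with the trend removed. Library totals alone called 608 higher and 961 lower, against 795 and 803. With 1 library left out, the ranges were 139 to 3233 for all genes, 0 to 16 and 0 to 3 for rises and falls among the 42, and 1 to 19 and 1 to 14 on the wider list. Of all genes, 61 to 1661 rose and 78 to 1572 fell in these fits. The median of the 42 stayed between 0.10 and 0.26 in every fit. The cause was not tested. The replicate numbers did not pair the libraries (correlations of same-numbered deviations -0.26, -0.63 and 0.24), and with the replicate block 1028 genes were called, 4 rises (without KEAP1 and PRDX2) and 1 fall among the 42 and 2 rises on the wider list. Among genes that never passed, signs turned. With 1 library left out, the log2 fold change ran from -0.061 to 0.112 for GSS, -0.092 to 0.006 for GSR, -0.013 to 0.177 for TXNRD1, -0.126 to 0.078 for SRXN1, -0.009 to 0.175 for PRDX6, -0.072 to 0.146 for TALDO1, -0.367 to 0.119 for AKR1B10, -0.007 to 0.339 for AKR1C1 and -0.158 to 0.046 for ABCC1. It was 0.098 for AKR1B10 and 0.000 for GSR without control 1 and SAM 2, and -0.082 for TALDO1 and 0.031 for ABCC1 with the trend removed.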
